A study of Mus musculus with 30 samples.

Results

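Knockdown of the long form of CASC15 was examined in untreated cells labelled as mouse aortic smooth muscle cells. The comparison was chosen by library name and took 8 of the 30 libraries of the series, 4 with long CASC15 knockdown and 4 controls, all from sequencing run 3. Both groups were kept in serum-free medium for 48 h and were transfected at least 24 h before harvest. The protocol gives GapmeRs at 1 µg/ml and a control siRNA at 10 ng/ml. The controls are labelled only as knockdown controls, so which reagent they received is not stated. The titles of the knockdown libraries count the target up from CASC19 to CASC22, while their library names all carry lCAS, read here as long CASC15. No growth factor or hormone was added to either group. Batches P16 to P19, as the labels call them, each gave 1 control and 1 knockdown library. The protocol text mentions cells of mouse and of rat, gives no source animal or line, and does not say whether batches are separate cultures, so p-values measure the spread between these libraries only.

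CASC15 is a long noncoding RNA gene that lies beside SOX4, which encodes a transcription factor of the SRY-box family. A GapmeR is a short oligonucleotide with a central DNA stretch between modified ends. It pairs with its target RNA, and RNase H then cuts the RNA strand of the hybrid. Smooth muscle cells of the aorta make contractile proteins and the collagens, elastin and proteoglycans of the vessel wall. In culture they can lower contractile genes, divide and deposit matrix.

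The 4 controls held 18366373 to 30336220 expected counts on named genes and the 4 knockdown libraries 17259049 to 20697326. Levels are given as CPM, counts scaled to library size and by TMM factors, which ran from 0.974 to 1.045. Mitochondrial genes took 2.65% to 3.01% of counts in controls and 2.57% to 3.27% in knockdown libraries. Knockdown library P19 stood apart. On the first principal component, which held 47.4% of the variance, the knockdown libraries of P16 to P18 lay at 44.5 to 45.5 and the controls at -46.6 to -25.5, while knockdown P19 lay between them at -4.42. Both P19 libraries were also low on the second component (17.4% of the variance), at -45.9 and -23.3 against 2.08 to 21.9 for the other 6. Counts of list members are therefore also given without batch P19. Among the genes named as called below, Prl lost its call without batch P19, and E2f3, Cdkn1c and Itga4 lost theirs without knockdown P19 alone. Replicates share a batch number across groups, so a fit with the batch as a block is given beside list counts that it moves by over 1.5 times and calls of named genes that it changes.

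Among Acta2, Tagln, Myh11, Cnn1 and Lmod1, markers of differentiated smooth muscle, only Acta2 was well expressed. Acta2, which encodes smooth muscle alpha actin, had 194, 211, 220 and 223 CPM in the controls of P16 to P19. Myl9, a further smooth muscle marker, had a mean of 15.7 CPM in controls. Tagln, the transgelin gene, had a mean of 1.06 CPM in controls, and Myh11, Cnn1 and Lmod1 had means of 0.0639, 0.0249 and 0.755 CPM. Markers of other cell types were partly present, since their summed level in controls was 194 to 231 CPM for fibroblast markers, 100 to 121 CPM for neural markers and 44 to 54.2 CPM for adipocyte markers. Cdh5, Tie1 and Erg of endothelium, Ptprc, Adgre1, C1qa and C1qb of leukocytes, and Myod1, Myog and Myf5 of skeletal muscle had no counts. Only 3 of 10 endothelial, 2 of 10 leukocyte, 7 of 10 fibroblast, 2 of 10 adipocyte, 6 of 10 neural and 2 of 10 skeletal and cardiac muscle markers passed the filter on low counts. In bulk RNA, fewer cells of a type and less RNA per cell cannot be told apart, which applies to every result below.

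The target was read from 2610307P16Rik (ENSMUSG00000085936.10), the long noncoding RNA gene next to Sox4. No table used here pairs that symbol with CASC15, and gene counts do not separate a long transcript from others. It had 6.01, 5.2, 4.94 and 5.92 CPM in the controls of P16 to P19 and 2.15, 2.78, 3.48 and 3.08 CPM in the knockdown libraries. The groups did not overlap, and the residual level was highest in knockdown P18. The knockdown mean was 52.1% of the control mean (log2 change -0.95, SE 0.187, adjusted p = 0.000832). A log2 change here is the log2 fold change of knockdown over control from the fitted model, with its standard error (SE). Adjusted p-values here and below come from edgeR's quasi-likelihood test after Benjamini-Hochberg correction over all 15103 genes tested. Genes are called at an adjusted p under 0.05.

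Genes around the target did not share 1 direction. Sox4, the nearest gene on 1 side, had 1006, 1162, 1153 and 1066 CPM in controls and 1298, 1194, 1254 and 1117 CPM with knockdown, and the ranges overlapped (log2 change 0.15, SE 0.0993, adjusted p = 0.289, and 0.0476 without batch P19). Prl, the nearest listed gene on the other side and the gene for prolactin, was below 1 CPM in all 8 libraries (-2.14, adjusted p = 0.0219), and its call was lost in 6 of 12 fits that left out a library or a batch, with adjusted p of 0.0561 to 0.152. Further on the Sox4 side, Cdkal1, a tRNA-modifying enzyme, rose from 12.2 ± 0.879 to 17.4 ± 1.42 CPM (SD over 4 libraries each; log2 change 0.51, SE 0.106, adjusted p = 0.00144). Mboat1, a lysophospholipid acyltransferase, had 31.8, 31.5, 32.2 and 35.1 CPM in controls and 17.7, 15.5, 16.7 and 27.7 CPM with knockdown. It fell without overlap (log2 change -0.75, SE 0.145, adjusted p = 0.000691), and the smallest difference was in P19. E2f3, a cell-cycle transcription factor that lies between Cdkal1 and Mboat1, fell by 0.21 on the log2 scale (adjusted p = 0.036), a call lost in 7 of the 12 fits, at 0.0665 to 0.151. The listed neighbours Mrs2, Gpld1, Aldh5a1, Tdp2 and A330102I10Rik were not called, with log2 fold changes from -0.38 to 0.35. With the block Aldh5a1, a mitochondrial dehydrogenase, was lower (adjusted p = 0.00917).

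The question was which genes change when long CASC15 is lowered. The test called 3783 of 15103 genes (25.0%). Knockdown raised 1855 (12.3%) and lowered 1928 (12.8%). The batch block raised the number to 6126 (40.6%; 3022 higher and 3104 lower), and 3780 of the 3783 genes were called in that fit too. Leaving out batch P19 gave 6062 of 15159 genes (40.0%; 2828 higher and 3234 lower), 3660 of them shared with the fit on all batches. Most changes were small. The median absolute log2 fold change of called genes was 0.49, and 1915 of them changed by less than 0.5. A change of 1 log2 unit or more was reached by 382 higher and 391 lower genes, and of 2 or more by 96 and 90. The control and knockdown ranges did not overlap for 3698 genes (24.5% of those tested), of which 3003 were called. Protein-coding genes were called in 28.3% of 12467 cases and long noncoding types in 11.1% of 1157. Of the 129 noncoding genes called, 88 were higher and 41 lower. The median log2 fold change over all genes was 0.02, and with RLE scaling 1795 genes were higher and 1959 lower.

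**Figure D1:**
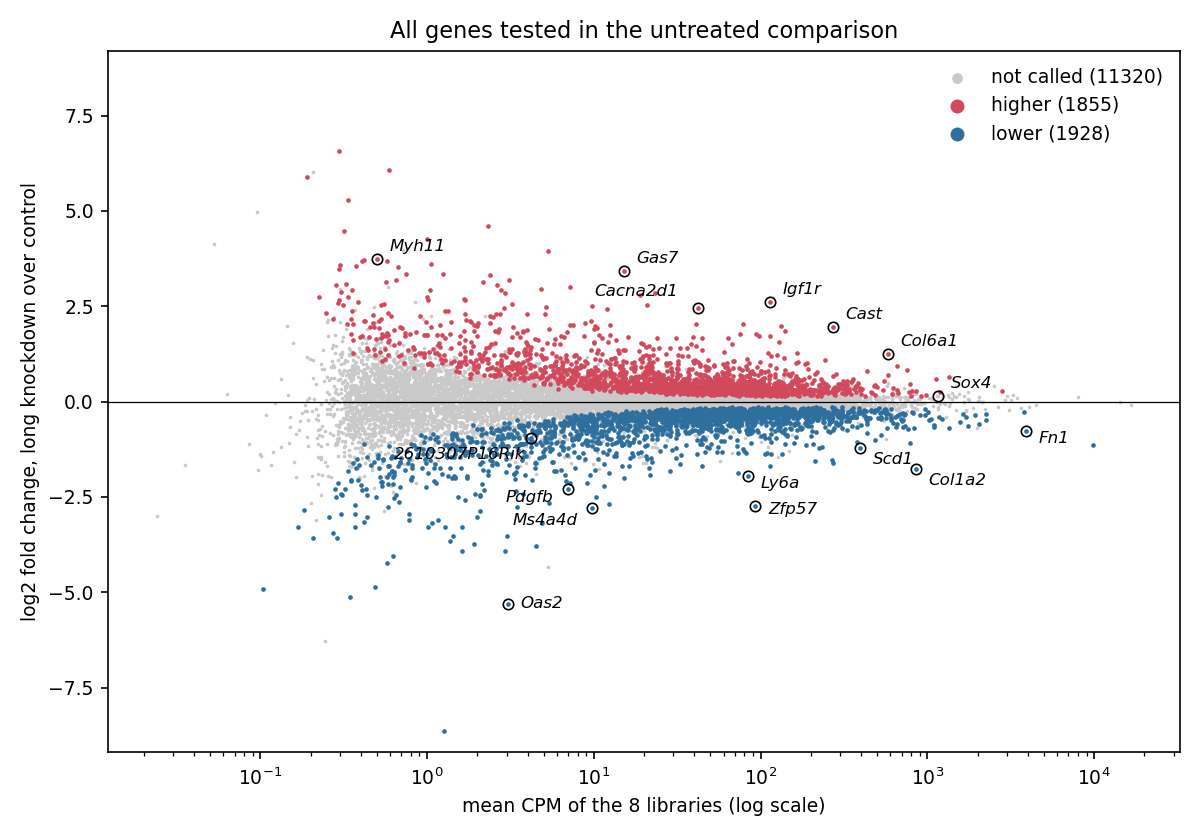
Mean CPM of each of the 15103 genes tested (x axis, log scale) against its log2 fold change, long CASC15 knockdown over control (y axis). Coloured points are the 1855 genes called higher and the 1928 called lower, and grey points were not called. Called genes lie at all levels of expression, and most lie within 1 log2 unit of 0.

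Igf1r had the smallest adjusted p of the 12 genes with the largest increases. It encodes the receptor tyrosine kinase for insulin-like growth factor 1. The 12 largest increases, and the 12 largest decreases below, were taken only from genes without overlap between groups, so their separation follows from that choice. Igf1r (ENSMUSG00000005533.11) had 26.7, 29.5, 33.8 and 37.3 CPM in the controls of P16 to P19 and 178, 201, 205 and 194 CPM in the knockdown libraries. Every knockdown library, P19 included, lay far above every control, and the mean was 6.12-fold higher (log2 change 2.61, SE 0.113, adjusted p = 1.09e-11). Cacna2d1 (ENSMUSG00000040118.17), an auxiliary subunit of voltage-gated calcium channels, had 11.6, 12.5, 11.5 and 16.7 CPM in controls and 63.2, 75.3, 78.9 and 69.2 CPM with knockdown. Its groups were as cleanly apart, also in P19 (log2 change 2.45, SE 0.163, adjusted p = 4.03e-09). Cast (ENSMUSG00000021585.11) encodes calpastatin, the inhibitor of the calpain proteases. It had 106, 98.5, 111 and 133 CPM in controls and 415, 397, 415 and 507 CPM with knockdown (log2 change 1.95, SE 0.116, adjusted p = 1.00e-09). Knockdown P19 held its highest value.

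For 8 of those 12 genes the knockdown level was lowest in P19, namely Gas7, Wnt5b, Abca1, Cbx7, Pi15, Col27a1, Flrt1 and Rgs5. The log2 ratio of knockdown to control was smallest in P19 for 10 of the 12, all but Cbx7 and Rgs5. Log2 ratios of batches here and below add 0.5 CPM to each level, which shrinks those of genes at low CPM. Gas7, an adaptor of the actin cytoskeleton, had 2.81, 3.84, 2.34 and 1.52 CPM in controls and 38.3, 31.1, 34.1 and 7.48 CPM with knockdown. Wnt5b, a secreted WNT ligand, had 2.73, 6.06, 7.88 and 2.61 CPM in controls and 40.7, 44.3, 38.6 and 8.54 CPM with knockdown (log2 change 2.80, SE 0.517, adjusted p = 0.000736). Knockdown P19 was the lowest of its group for Gas7 and Wnt5b, whose control and knockdown ranges by choice did not overlap. The same held for Abca1, the exporter of cellular cholesterol to apolipoproteins, with 1.97, 1.79, 4.24 and 3.52 CPM in controls and 18.8, 19, 21.6 and 6.69 CPM with knockdown (log2 change 2.51, SE 0.38, adjusted p = 8.71e-05). Cbx7, a subunit of Polycomb repressive complexes, had 2.02, 1.73, 1.95 and 0.711 CPM and then 9.67, 8.79, 10.3 and 6.42 CPM (log2 change 2.47, SE 0.312, adjusted p = 8.03e-06). Synpo2, an actin-binding protein of muscle also called myopodin, had 1.93, 1.84, 1.35 and 1.76 CPM in controls and 11.4, 8.9, 6.52 and 6.85 CPM with knockdown (log2 change 2.29, SE 0.224, adjusted p = 3.42e-07). Cbx7 and Synpo2 were likewise chosen without overlap between groups. For Cbx7 the log2 ratio was not smaller in P19, at 2.01, 2.06, 2.14 and 2.51 in P16 to P19. Pi15, a member of the secreted CAP family, rose by 3.01 and Col27a1, a fibrillar collagen of cartilage, by 2.12 (adjusted p = 0.000476 and 0.00181). Pi15 had 19.9, 13.2, 12.9 and 4.72 CPM and Col27a1 16.4, 20.5, 20.3 and 4.93 CPM in the knockdown libraries of P16 to P19. The log2 ratios of Col27a1 were 2.49, 2.17, 1.96 and 0.67.

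3 of those 12 genes lost their calls when single libraries or batches were left out. Rgs5, a regulator of G protein signalling typical of pericytes, had 6.93, 8.99, 6.68 and 0.779 CPM in controls and 86.7, 37.2, 28.5 and 11.5 CPM with knockdown (log2 change 2.84, SE 0.793, adjusted p = 0.0147). Its knockdown values spanned a wide range, and its call was lost without knockdown P16 and without batch P16, P17 or P18 (adjusted p = 0.0642 to 0.142). Flrt1, a membrane protein of cell adhesion, had 24.7, 26.6, 22 and 6.95 CPM in the knockdown libraries. It rose by 2.42 on the log2 scale (adjusted p = 0.00296), and lost its call without batch P16 (adjusted p = 0.0517). Col4a6, a chain of basement membrane collagen, had 1.09, 2.6, 3.24 and 6.47 CPM in controls and 7.15, 15.2, 17.9 and 16.9 CPM with knockdown (log2 change 2.07, SE 0.588, adjusted p = 0.0154). Without control P16, batch P17 or batch P18 its adjusted p was 0.0515 to 0.137.

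**Figure D2:**
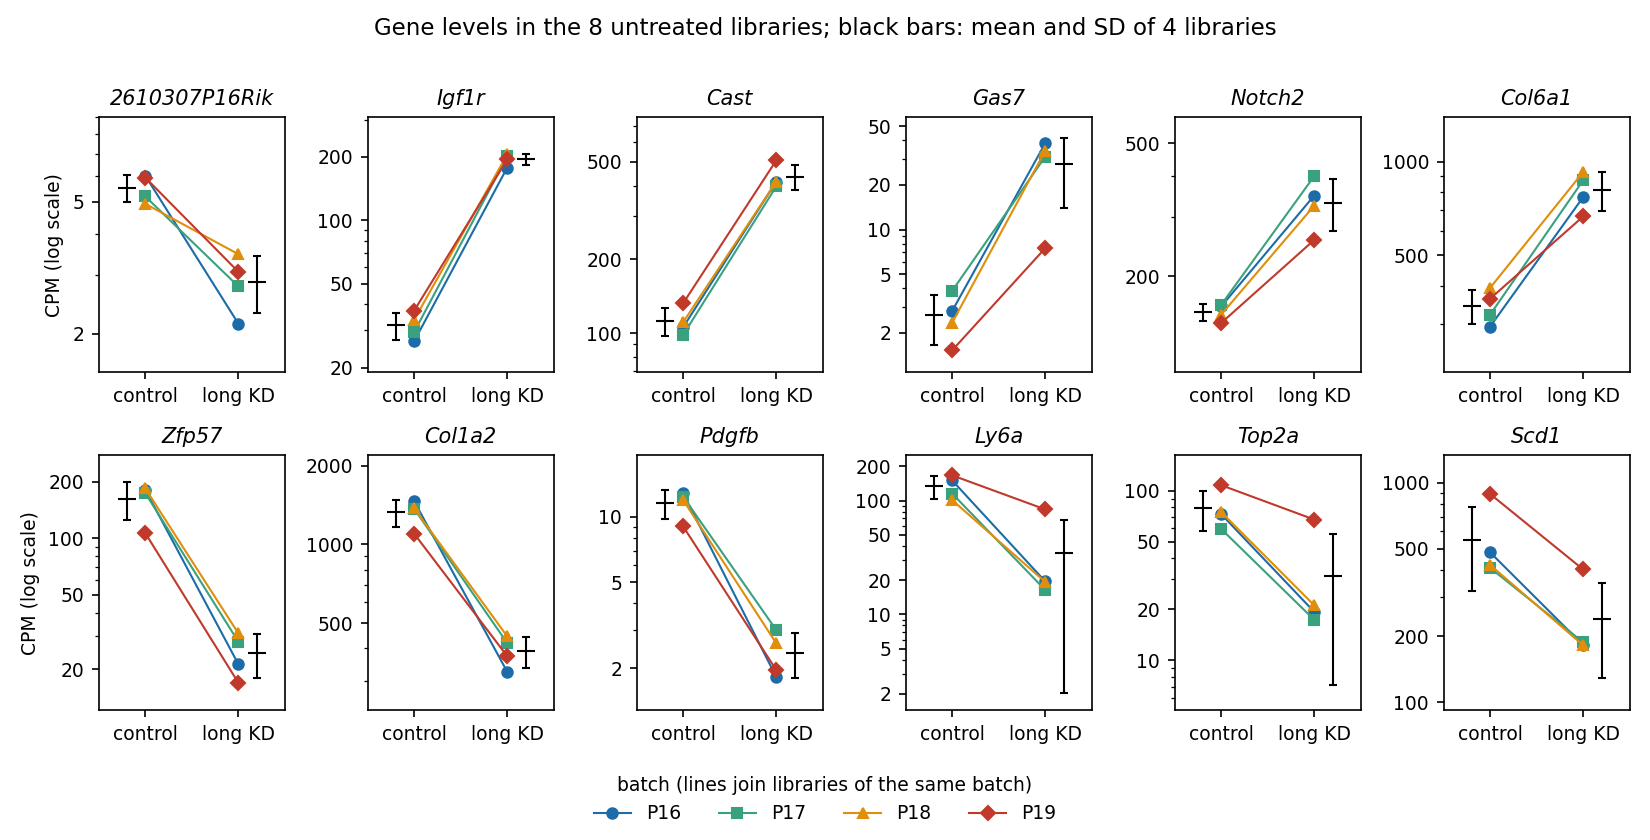
CPM on a log scale of 12 genes in the 4 control and 4 long knockdown libraries. Points are libraries, thin lines join the libraries of the same batch, and black bars give the mean and SD of each group. Igf1r and Cast separate in every batch, while for Gas7, Ly6a and Top2a the knockdown library of P19 lies nearer to the controls.

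Among the 12 largest decreases, Pdgfb had the smallest adjusted p. It encodes the B chain of platelet-derived growth factor, a mitogen of smooth muscle cells. Pdgfb (ENSMUSG00000000489.8) had 12.8, 12.4, 12 and 9.04 CPM in controls and 1.82, 3, 2.61 and 1.96 CPM with knockdown. The groups did not overlap and the mean was 4.92-fold lower (log2 change -2.30, SE 0.204, adjusted p = 1.10e-07). Zfp57, a KRAB zinc finger protein that binds methylated imprinting control regions, had 182, 174, 185 and 107 CPM in controls and 21.3, 28.1, 31.1 and 17 CPM with knockdown. All 4 knockdown libraries lay below all controls, and in P19 both values were the lowest of their groups. Ccl2, a chemokine that attracts monocytes, had 20.2, 24.6, 29.4 and 22.7 CPM and 4.62, 4.95, 5.76 and 8.76 CPM (log2 change -2.01, SE 0.219, adjusted p = 1.87e-06). F2rl1, which encodes protease-activated receptor PAR2, had 12.1, 12.3, 7.33 and 10.8 CPM in controls and 3.04, 1.89, 2.28 and 3.87 CPM with knockdown (log2 change -1.93, SE 0.243, adjusted p = 8.01e-06). Both were lower in all 4 batches without overlap.

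Capn6, a calpain family member without protease activity, had 17.5, 16.1, 10.1 and 15.4 CPM in controls and 2.71, 2.17, 3.42 and 5.09 CPM with knockdown (log2 change -2.14, SE 0.256, adjusted p = 4.69e-06). Tgtp1, an interferon-induced GTPase, had 23.1, 17.8, 16.8 and 12.8 CPM and 4.95, 2, 2.61 and 2.71 CPM (log2 change -2.51, SE 0.275, adjusted p = 1.86e-06). Mice carry near-identical copies of Tgtp1, among which RSEM divides reads, so its level is uncertain. For Slc12a8, a solute carrier, and Fanca, a Fanconi anaemia DNA repair protein, knockdown P19 was the highest of its group, at 4.56 and 5.36 CPM, and the log2 fold changes were -2.15 and -2.09 (adjusted p = 1.48e-05 and 7.16e-05). Ms4a4d, a 4-transmembrane protein, Muc5b, a gel-forming mucin, and AI661453 fell by 2.79, 2.68 and 2.66 on the log2 scale (adjusted p = 1.50e-06, 0.000353 and 3.15e-06). All 5 kept their calls in each alternative fit, the minimum folds aside. Ly6a, the surface antigen Sca-1, had 151, 116, 101 and 167 CPM in controls and 19.5, 16.4, 19.3 and 83.8 CPM with knockdown (log2 change -1.95, SE 0.537, adjusted p = 0.0139). Its P19 value was over 4 times those of the other knockdown libraries, and the adjusted p was 0.0823 to 0.124 when batch P16, P17 or P18 was left out and 1.01e-06 when batch P19 was.

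Of the 8 called genes with the highest CPM and a change of 1 log2 unit or more, only Col6a1 and Cast were higher. Col1a2 (ENSMUSG00000029661.17), the alpha 2 chain of type I collagen, had 1459, 1366, 1372 and 1097 CPM in controls and 325, 419, 444 and 373 CPM with knockdown. It was 3.39-fold lower, without overlap and in every batch (log2 change -1.76, SE 0.118, adjusted p = 3.08e-09). Col6a1 (ENSMUSG00000001119.8), a chain of the microfibril-forming type VI collagen, had 295, 323, 393 and 363 CPM in controls and 770, 873, 928 and 668 CPM with knockdown (log2 change 1.24, SE 0.125, adjusted p = 5.63e-07). Of these 8, ENSMUSG00000119584.1 has no symbol in the reference table, and its share of a library was 1.15% to 1.44% in controls and 0.558% to 0.77% with knockdown (log2 fold change -1.14, adjusted p = 0.000309). Cd55, an inhibitor of complement on the cell surface, had 695, 602, 602 and 679 CPM and 260, 290, 338 and 397 CPM (log2 change -1.0, SE 0.122, adjusted p = 6.07e-06). C1s1, a serine protease that starts the classical complement cascade, had 521, 524, 559 and 448 CPM in controls and 192, 203, 253 and 332 CPM with knockdown (log2 change -1.07, SE 0.187, adjusted p = 0.000394). Akap12, a scaffold of protein kinase A, had 894, 1017, 1132 and 1237 CPM and 410, 372, 395 and 858 CPM (-1.07, adjusted p = 0.00862). Knockdown P19 was the outlying value, and the call was lost without batch P16, P17 or P18 (adjusted p = 0.0609 to 0.0927).

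**Figure D3:**
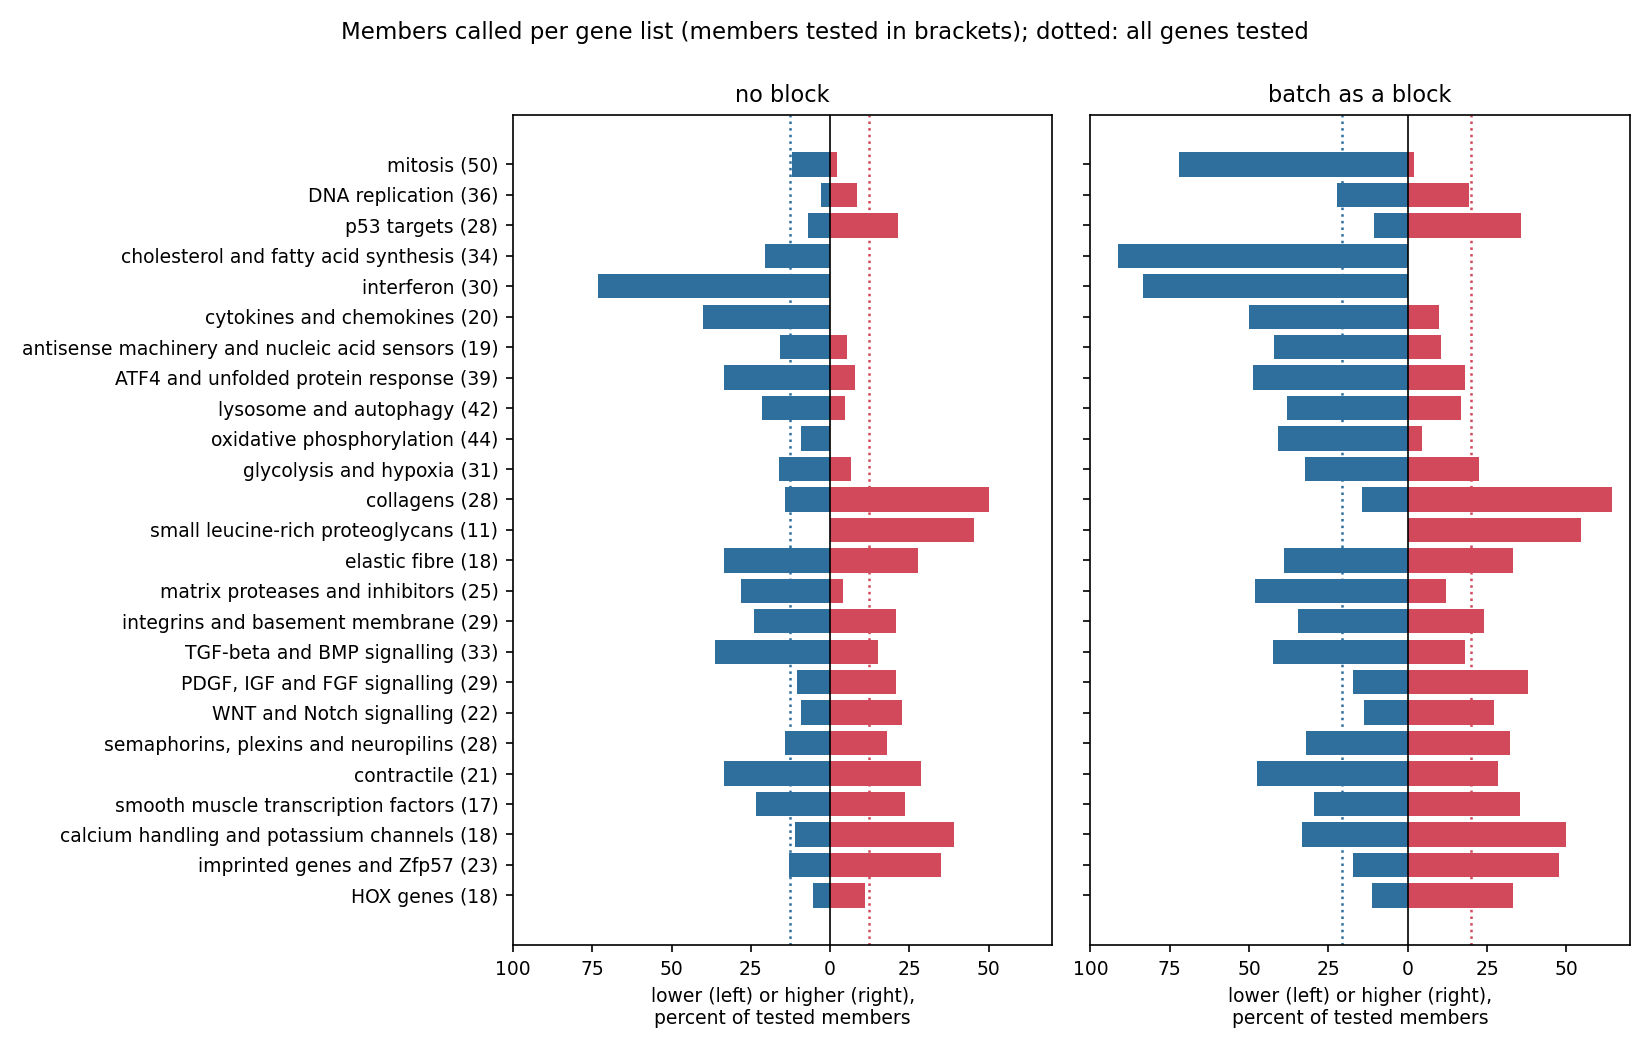
Percent of tested members called higher and lower in 25 hand-written gene lists, in the fit without a block and in the fit with a batch block. Dotted lines mark the percent over all genes tested. Interferon genes stand out among lower genes in both fits, and the mitosis and cholesterol lists do so with the block.

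Interferon-stimulated genes were lower with knockdown. Type I interferon acts through STAT and IRF transcription factors, which bind the interferon-stimulated response element of target promoters. Of 30 tested members of 34 listed, 22 fell and none rose, against 12.8% of all genes lower. The median log2 fold change was -1.09, against 0.02 over all genes. Genes whose knockdown libraries held 3 counts or fewer, placed at their bound, left the median at that value. Without batch P19 27 of the 30 fell and 0 rose, where 21.3% and 18.7% of all genes did. Over all listed members tested in each fit, leaving out 1 library gave 19 to 23 lower members and leaving out 1 batch 15 to 28. The summed level was 532, 525, 524 and 496 CPM in the controls of P16 to P19 and 319, 301, 328 and 369 CPM in the knockdown libraries, without overlap. The median log2 ratio was -1.0, -1.15, -0.88 and -0.53 in P16 to P19. The reagent of the controls is not stated, so effects of the transfected reagent and of the target cannot be told apart.

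The 2′-5′ oligoadenylate synthetases, which sense double-stranded RNA and activate RNase L, had the largest fitted decreases of the list. Oas2 (ENSMUSG00000032690.17) had 8.19, 6.44, 6.23 and 3.01 CPM in controls and 0.14, 0.223, 0.163 and 0.0531 CPM with knockdown (log2 change -5.31, SE 0.839, adjusted p = 0.00013). Oas1a (ENSMUSG00000052776.11) had 4.62, 3.57, 3.49 and 2.57 CPM and 0.187, 0.0556, 0.326 and 0.478 CPM (log2 change -3.74, SE 0.372, adjusted p = 3.82e-07). Both were near 0 in all knockdown libraries, P19 among them. Oas2 held 1 to 4 counts in each, so its fitted change rests on few counts. Oas1g, a close copy of Oas1a with which it can share reads, was at 3 counts or fewer in each knockdown library and at least 4.31-fold lower against a floor of 3 counts per library (adjusted p = 0.000484). Zbp1, a sensor of Z-form nucleic acid, was at least 3.49-fold lower on the same floor (adjusted p = 0.0225), and lost its call in 6 of 12 fits that left out a library or batch (adjusted p = 0.0513 to 0.185).

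Further members were named after their values were seen. Isg15, a ubiquitin-like modifier, had 3.15, 4.06, 4.54 and 2.98 CPM in controls and 1.45, 0.612, 0.489 and 1.27 CPM with knockdown (log2 change -1.92, SE 0.367, adjusted p = 0.000612). Usp18, the protease that removes ISG15 and restrains interferon signalling, fell by 2.42 and Bst2, the virus-tethering protein tetherin, by 1.43 on the log2 scale (adjusted p = 0.000114 and 1.12e-05). Ddx58, which encodes the RNA sensor RIG-I, had 62.3, 57.8, 54.1 and 60.3 CPM in controls and 29.8, 27.5, 27.3 and 32.2 CPM with knockdown (log2 change -1.0, SE 0.0765, adjusted p = 1.30e-08). Stat2 fell by 0.69 (adjusted p = 4.20e-06). All 5 were lower without overlap. Ifit2, Ifit3 and Ifit3b were not called, with log2 changes of -0.21, -0.14 and -0.09 (adjusted p = 0.362, 0.599 and 0.817). Ifit2 was lower with the block and without batch P19 (adjusted p = 0.00474 and 0.0466).

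RefSeq promoters, 250 bases before to 50 bases after a gene's start, were matched to 10333 of the genes tested. The letters GAAA, any 2 bases and GAAA again, the core of the interferon-stimulated response element, were searched on both strands with overlapping matches allowed. They were found in 12 of 20 promoters of the interferon list (60.0%) and 2.98% of those of all genes tested. Promoters of called lower genes held them in 5.18% and those of called higher genes in 2.25%. The interferon list was written by hand and its members were counted whether called or not, so its share shows nothing about knockdown. The 250 bases before the start of Oas1a (GRCm38.p6, chr5:120907526-120907775, minus strand) and Isg15 (chr4:156200819-156201068, minus strand) are shown 5′ to 3′ because both genes fell and both hold the letters. Capitals mark the matches, which begin 20 and 14 bases before the start in Oas1a and 78, 72 and 66 in Isg15. The bases after the listed start were found in a reference transcript of Isg15 but not of Oas1a. Distances in Oas1a therefore rest on the listed start alone.
Oas1a: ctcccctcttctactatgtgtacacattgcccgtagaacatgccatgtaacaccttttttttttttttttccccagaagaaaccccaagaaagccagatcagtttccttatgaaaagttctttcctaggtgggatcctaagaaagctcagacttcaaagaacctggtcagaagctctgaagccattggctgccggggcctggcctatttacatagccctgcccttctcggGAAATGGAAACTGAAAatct
Isg15: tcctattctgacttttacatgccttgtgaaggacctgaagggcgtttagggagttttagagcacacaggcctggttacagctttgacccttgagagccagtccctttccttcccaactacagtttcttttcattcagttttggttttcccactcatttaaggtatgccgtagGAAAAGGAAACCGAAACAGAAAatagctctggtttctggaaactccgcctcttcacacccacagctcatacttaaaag

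Other motifs were counted in the same promoters, all on both strands. The AP-1 letters TGANTCA were in 5.74% of promoters of lower genes, 4.5% of higher genes and 4.8% of all. The TEAD letters GGAATG were in 13.0%, 11.1% and 11.9%, and the CArG box bound by SRF in 1.94%, 1.16% and 1.28%. The ZFP57 letters TGCCGC were in 17.8%, 22.9% and 19.7%, and the SOX letters ACAAAG or ACAATG in 17%, 20.7% and 19.2%. E2F letters (TTTCGCGC or TTGGCGC) were in 4.42%, 4.93% and 5.01%.

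All cytokine and chemokine genes called were lower. Of 20 tested, 8 fell and none rose (median -0.31), where 12.8% of all genes fell and 12.3% rose. With the block 10 fell and 2 rose, where 20.6% and 20.0% of all genes did. The counts were 0 higher and 12 lower without batch P19 (18.7% and 21.3% of all genes). Cytokines and chemokines gave 0 and 5 to 10 without 1 library, and 0 and 5 to 12 without 1 batch. Il6, which encodes interleukin 6, had 3.53, 2.38, 2.19 and 1.96 CPM in controls and no count in any of the 4 knockdown libraries, and was at least 16-fold lower against the floor (adjusted p = 1.48e-07). Icam1, an adhesion receptor for leukocytes, had 26.4, 26.6, 26.4 and 17.1 CPM in controls and 8.41, 8.96, 11.3 and 9.5 CPM with knockdown (log2 change -1.34, SE 0.18, adjusted p = 1.78e-05). Lcn2, the siderophore-binding lipocalin, fell by 2.25 (adjusted p = 0.0276), a call lost in 7 of 12 such fits at 0.0591 to 0.213. In the list of RNase H subunits, oligonucleotide handling and nucleic acid sensors, 1 gene rose and 3 fell of 19 tested (12.3% and 12.8% of all genes), and 2 and 8 with the block (20.0% and 20.6% of all genes). Counts in this list were 1 higher and 10 lower without batch P19 (18.7% and 21.3% of all genes). Its members gave 0 to 1 and 2 to 4 without 1 library, and 0 to 1 and 2 to 10 without 1 batch. Tmem173, the DNA-sensing adaptor STING, had 16.7, 15.4, 17.2 and 9.89 CPM in controls and 5.75, 5.45, 6.36 and 7.32 CPM with knockdown (log2 change -1.25, SE 0.212, adjusted p = 0.000208). Eif2ak2, the kinase PKR that senses double-stranded RNA, went from 69 ± 2.67 to 54.8 ± 5.13 CPM (SD over 4 libraries each; log2 change -0.33, SE 0.067, adjusted p = 0.00102). Rnaseh2c, a subunit of RNase H2, rose by 0.50 (adjusted p = 0.0133), with overlap, and its call was lost in 5 of the 12 fits at 0.0548 to 0.217. Its log2 ratios were 0.99, 0.33, 0.66 and -0.10 in P16 to P19, lower with knockdown in P19, and its adjusted p without batch P19 was 2.73e-05.

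Collagen genes changed in both directions. Of 28 tested, 14 rose and 4 fell (median 0.56), against 12.3% and 12.8% of all genes. Leaving out batch P19 gave 17 and 6, against 18.7% and 21.3% of all genes in that fit. Leaving out 1 library gave 13 to 17 higher members and leaving out 1 batch 10 to 17. Besides Col1a2, its partner chain Col1a1 fell, from 2149 ± 266 to 1379 ± 80.2 CPM (SD over 4 libraries each; log2 change -0.64, SE 0.104, adjusted p = 0.000132). The difference in change between both chains was not tested. Col14a1, a collagen on the surface of fibrils, had 447, 361, 263 and 238 CPM in controls and 164, 140, 121 and 146 CPM with knockdown (log2 change -1.20, SE 0.254, adjusted p = 0.00226). Col12a1, of the same subgroup, fell by 0.81 (adjusted p = 0.0107, and 0.0621 to 0.104 without batch P16, P17 or P18). The higher genes included chains of collagens III, IV, VI, XI and XVI. Col3a1, the chain of collagen III, named after its values were seen, had 23.2, 32, 47.5 and 19.7 CPM in controls and 90.7, 119, 124 and 55 CPM with knockdown (log2 change 1.67, SE 0.406, adjusted p = 0.00624, and 0.0672 to 0.071 without batch P16 or P17). Knockdown P19 was the lowest of its group. Col11a2, a minor fibrillar chain, had 3.95, 5.09, 6.43 and 2.13 CPM in controls and 18, 18, 21.5 and 8.65 CPM with knockdown (log2 change 1.93, SE 0.351, adjusted p = 0.00052). Col16a1, a fibril-associated collagen named after its values were seen, had 49.1, 51.6, 53.6 and 28.9 CPM in controls and 169, 166, 172 and 94.7 CPM with knockdown (log2 change 1.72, SE 0.235, adjusted p = 4.17e-05). Col6a6 was at the floor in controls and at least 4.64-fold higher (adjusted p = 0.00104). Of the paired chains of the main collagen IV network, Col4a1 did not pass (-0.19, adjusted p = 0.118) and Col4a2, also named after its values were seen, rose (0.57, adjusted p = 7.89e-06).

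Small leucine-rich proteoglycans, which bind collagen fibrils, rose in 5 of 11 tested members, against 12.3% of all genes, and none fell (median 0.67, and 0.31 without batch P19). These proteoglycans were 6 higher and 1 lower without batch P19 (18.7% and 21.3% of all genes). Proteoglycans gave 3 to 6 and 0 without 1 library, and 2 to 6 and 0 to 1 without 1 batch. Fmod, fibromodulin, had 8.48, 10.1, 10.6 and 9.75 CPM in controls and 20.9, 19.1, 19.6 and 21.1 CPM with knockdown (log2 change 1.05, SE 0.159, adjusted p = 5.89e-05). It was as high in P19 as in the other knockdown libraries. Prelp had 86, 93, 92.1 and 81 CPM in controls and 185, 173, 174 and 111 CPM with knockdown (log2 change 0.87, SE 0.163, adjusted p = 0.000681). Lum, lumican, rose by 2.06 with overlap (adjusted p = 0.00727, and 0.0908 without batch P16). Ecm2 rose by 1.06 (adjusted p = 0.017), a call lost in 6 of 12 fits at 0.0513 to 0.136.

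Elastic fibre genes split, with 5 of 18 higher and 6 lower (12.3% and 12.8% of all genes). Elastic fibre counts were 7 higher and 8 lower without batch P19 (18.7% and 21.3% of all genes). Elastic fibre genes gave 4 to 7 and 6 to 7 without 1 library, and 3 to 7 and 6 to 8 without 1 batch. Eln, tropoelastin, had 0.756, 1.08, 0.997 and 0.508 CPM in controls and 3.74, 5.06, 5.11 and 1.7 CPM with knockdown (log2 change 2.24, SE 0.406, adjusted p = 0.000361). Fbln5, fibulin 5, which tethers elastin to microfibrils, had 130, 143, 146 and 129 CPM and 293, 289, 250 and 160 CPM (log2 change 0.86, SE 0.177, adjusted p = 0.0016). Eln and Fbln5 did not overlap between groups, and P19 was the lowest knockdown value of each. Emilin2, an elastin interface glycoprotein, had 117, 107, 96.8 and 98.7 CPM in controls and 36.1, 37.1, 35.2 and 56.1 CPM with knockdown (log2 change -1.35, SE 0.152, adjusted p = 3.25e-06). Loxl2, a lysyl oxidase that crosslinks collagen and elastin, had 270, 245, 231 and 288 CPM and 104, 104, 119 and 143 CPM (log2 change -1.14, SE 0.109, adjusted p = 2.88e-07). Efemp1, fibulin 3, and the lysyl oxidase Loxl4 fell by 0.83 and 0.75 on the log2 scale (adjusted p = 5.21e-05 and 0.000347). All 4 of these lower genes were without overlap. Ltbp1, which holds latent TGF-beta in the matrix, rose by 0.80 (adjusted p = 0.00703, and 0.0628 to 0.08 without batch P16 or P18). Emilin1 rose by 0.48 (adjusted p = 0.0181), a call lost in 8 of 12 fits at 0.0519 to 0.149.

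Of 25 matrix proteases and inhibitors, 7 fell and 1 rose (12.8% and 12.3% of all genes), and 12 and 3 with the block (20.6% and 20.0%). Protease counts were 2 higher and 14 lower without batch P19 (18.7% and 21.3% of all genes). Proteases and inhibitors gave 1 and 6 to 9 without 1 library, and 0 to 2 and 2 to 14 without 1 batch. Adamts12, a metalloprotease of cartilage matrix, had 2.73, 3.74, 2.74 and 2.64 CPM in controls and 0.981, 1.45, 1.47 and 1.8 CPM with knockdown (log2 change -1.05, SE 0.231, adjusted p = 0.00206). Timp1, an inhibitor of metalloproteases, went from 10.2 ± 0.683 to 7.23 ± 1.15 CPM (SD over 4 libraries each; log2 change -0.49, SE 0.133, adjusted p = 0.0103), and its adjusted p was 0.059 without batch P17. Mmp3, stromelysin 1, had 23, 20.4, 22.7 and 25.9 CPM in controls and 7.66, 7.29, 11.4 and 20.4 CPM with knockdown (log2 change -0.98, SE 0.309, adjusted p = 0.0271). Knockdown P19 overlapped the controls, and the call was lost in 7 of 12 fits at 0.0616 to 0.159. Without batch P19 its adjusted p was 0.000256. Adamts7, a protease of smooth muscle matrix, fell by 0.66 (adjusted p = 0.0124, and 0.0654 to 0.0916 without batch P16, P17 or P18). Timp4 was the member that rose, from no count in 3 controls and 0.135 CPM in the fourth to 0.747, 0.779, 0.544 and 0.212 CPM (adjusted p = 0.00971, and 0.0626 to 0.0989 without batch P17 or P18).

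Integrin and basement membrane genes gave 6 higher and 7 lower of 29 (12.3% and 12.8% of all genes). Integrin and laminin counts were 7 higher and 11 lower without batch P19 (18.7% and 21.3% of all genes). This list gave 4 to 6 and 6 to 8 without 1 library, and 3 to 7 and 5 to 11 without 1 batch. Fn1, fibronectin, a major matrix ligand of integrins, had 5032, 5203, 4909 and 4573 CPM in controls and 3017, 2751, 2541 and 3338 CPM with knockdown (log2 change -0.76, SE 0.113, adjusted p = 5.10e-05). Itgb4 encodes an integrin subunit that binds laminin. Itgb4 had 82.3, 77, 71.2 and 42.3 CPM in controls and 21.1, 21, 21.5 and 20.5 CPM with knockdown (log2 change -1.69, SE 0.214, adjusted p = 1.56e-05), and its 4 knockdown values were nearly equal. Itga3, a further laminin receptor subunit, fell by 0.44 (adjusted p = 0.00119). Itgb8, a subunit of an integrin that activates latent TGF-beta, had 3.02, 2.44, 2 and 3.89 CPM in controls and 11.2, 14.1, 9.08 and 11.9 CPM with knockdown (log2 change 2.01, SE 0.201, adjusted p = 4.28e-07). Lama4, a laminin chain of vessel walls, rose from 14.4 ± 1.58 to 29.2 ± 4.94 CPM (SD over 4 libraries each; log2 change 1.02, SE 0.148, adjusted p = 3.89e-05). None of these 5 overlapped between groups. Itga4 rose by 0.61 with overlap (adjusted p = 0.0172), a call lost in 4 of 12 fits at 0.0567 to 0.145.

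The called growth factor receptors were higher, and 2 ligands and a binding protein were lower. In the list of PDGF, IGF and FGF signalling 6 of 29 rose and 3 fell (12.3% and 12.8% of all genes), and 11 and 5 with the block (20.0% and 20.6%). The list counts were 9 higher and 6 lower without batch P19 (18.7% and 21.3% of all genes). Growth factor genes gave 4 to 7 and 3 to 6 without 1 library, and 3 to 9 and 2 to 6 without 1 batch. Fgfr1, a receptor of fibroblast growth factors, had 139, 119, 122 and 111 CPM in controls and 264, 269, 232 and 213 CPM with knockdown (log2 change 0.99, SE 0.103, adjusted p = 7.06e-07). Fgfr2 had 3.44, 2.38, 3.34 and 3.35 CPM and 9.57, 11.1, 13.5 and 6.42 CPM (log2 change 1.69, SE 0.273, adjusted p = 0.000116). Both receptors rose without overlap in all 4 batches. Pdgfra, the receptor of PDGF A and C chains, had 13.8, 18.5, 21.1 and 7.18 CPM in controls and 65.7, 61.1, 50.8 and 12 CPM with knockdown (log2 change 1.66, SE 0.527, adjusted p = 0.0291). Knockdown P19 lay within the control range, and the call was lost in 8 of 12 fits at 0.0616 to 0.218. Without batch P19 its adjusted p was 3.43e-07. Igfbp7, a secreted protein that binds insulin-like growth factors, had 226, 178, 173 and 201 CPM in controls and 68.7, 70.4, 51.7 and 111 CPM with knockdown (log2 change -1.37, SE 0.204, adjusted p = 8.77e-05). Fgf18, a secreted FGF ligand, fell by 1.19 (adjusted p = 0.00682, and 0.0659 to 0.092 without batch P16, P17 or P18). The third lower member was Pdgfb, described above.

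In the WNT and Notch list, 5 of 22 rose and 2 fell (12.3% and 12.8% of all genes). Counts of WNT and Notch genes were 6 higher and 3 lower without batch P19 (18.7% and 21.3% of all genes). WNT and Notch genes gave 4 to 6 and 2 to 3 without 1 library, and 4 to 6 and 2 to 3 without 1 batch. Notch1, Notch2 and Notch3, receptors of cell contact signalling, rose. Notch1 had 11.5, 12.6, 13.1 and 11.9 CPM in controls and 28.9, 32.4, 28.5 and 25.1 CPM with knockdown (log2 change 1.23, SE 0.127, adjusted p = 6.84e-07), and Notch2 had 163, 164, 154 and 145 CPM and 349, 399, 326 and 257 CPM (log2 change 1.09, SE 0.129, adjusted p = 4.67e-06). The groups were apart for Notch1 and Notch2. Notch3, named after its values were seen, had 14.7, 13.6, 14.3 and 10.2 CPM in controls and 21, 25.3, 25.7 and 27.7 CPM with knockdown (log2 change 0.92, SE 0.136, adjusted p = 4.81e-05). Jag2, a Notch ligand, fell, with 24.8, 19.9, 23.3 and 16.6 CPM in controls and 9.06, 11.2, 10.5 and 10.3 CPM with knockdown (log2 change -1.04, SE 0.135, adjusted p = 1.09e-05). Wnt4, a WNT ligand, had 15.8, 15.5, 12.2 and 14.2 CPM in controls and 5.98, 7.62, 4.67 and 5.89 CPM with knockdown (log2 change -1.25, SE 0.152, adjusted p = 4.93e-06), opposite to Wnt5b. Dkk2, a modulator of WNT receptors, rose by 1.07 (adjusted p = 0.0234), a call lost in 7 of 12 fits at 0.0556 to 0.16.

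TGF-beta and BMP signalling genes gave 5 higher and 12 lower of 33 (median -0.07), against 12.3% and 12.8% of all genes. TGF-beta and BMP counts were 5 higher and 14 lower without batch P19 (18.7% and 21.3% of all genes). TGF-beta genes gave 3 to 5 and 10 to 12 without 1 library, and 1 to 5 and 6 to 14 without 1 batch. Id1 and Id3, direct targets of BMP signalling that block basic helix-loop-helix factors, fell. Id1 had 70.5, 78.5, 73.3 and 63.7 CPM in controls and 40.4, 39.4, 46.2 and 43 CPM with knockdown (log2 change -0.76, SE 0.0975, adjusted p = 1.01e-05), and Id3 had 164, 196, 186 and 157 CPM and 113, 109, 106 and 96.3 CPM (log2 change -0.73, SE 0.104, adjusted p = 3.33e-05). Neither overlapped. Smad3, the intracellular mediator of TGF-beta, rose from 141 ± 2.66 to 169 ± 4.87 CPM (SD over 4 libraries each; log2 change 0.26, SE 0.049, adjusted p = 0.000507), and Tgfbr1, its receptor kinase, by 0.24 (adjusted p = 0.00327, and 0.0714 without batch P18). Tgfbi, a secreted matrix protein, had 0.336, 1.3, 0.549 and 0.169 CPM in controls and 5.51, 6.23, 5.76 and 1.22 CPM with knockdown (log2 change 3.06, SE 0.713, adjusted p = 0.00381, and 0.0598 without batch P18). Grem1 and Fst, secreted antagonists of BMPs and activins, fell by 1.06 and 0.75 (adjusted p = 0.0208 and 0.0155). Their calls were lost in 7 and 5 of 12 fits, at 0.0567 to 0.184 and 0.0503 to 0.119. Grem1 went the other way in P19, with log2 ratios of -1.42, -1.51, -1.53 and 0.46 in P16 to P19, and its adjusted p without batch P19 was 1.56e-07. Bmpr2 rose by 0.24 (adjusted p = 0.025), a call lost in 9 at 0.0512 to 0.225.

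Semaphorins and plexins, ligands and receptors of cell guidance, gave 5 higher and 4 lower of 28 (12.3% and 12.8% of all genes), and 9 and 9 with the block (20.0% and 20.6% of all genes). Semaphorin and plexin counts were 9 higher and 10 lower without batch P19 (18.7% and 21.3% of all genes). Guidance genes gave 3 to 5 and 2 to 6 without 1 library, and 3 to 9 and 0 to 10 without 1 batch. Sema5a had 14.2, 18.2, 18.9 and 13 CPM in controls and 76.1, 74.1, 79.8 and 34.3 CPM with knockdown (log2 change 2.04, SE 0.296, adjusted p = 7.47e-05). Plxna2 had 55.5, 56.3, 48.5 and 50.5 CPM and 105, 100, 97.2 and 82.6 CPM (log2 change 0.87, SE 0.0849, adjusted p = 3.42e-07). Both were apart in all 4 batches. The lower members, Sema4a, Sema6b, Sema6d and Plxnd1, fell by 1.74, 1.5, 0.54 and 0.29 (adjusted p = 0.0357, 0.00903, 0.02 and 0.0112). Each of those 4 lost its call in 2 to 8 of 12 fits, with adjusted p up to 0.188.

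Contractile genes split, with 6 of 21 tested members higher and 7 lower (median -0.07; 12.3% and 12.8% of all genes), and 6 and 10 with the block (20.0% and 20.6%). Contractile counts were 6 higher and 10 lower without batch P19 (18.7% and 21.3% of all genes). Contractile members gave 5 to 6 and 5 to 9 without 1 library, and 4 to 6 and 4 to 10 without 1 batch. Acta2 had 216, 172, 160 and 260 CPM with knockdown, within and around the control range given above (log2 change -0.07, SE 0.137, adjusted p = 0.738). Myl9, the regulatory light chain of smooth muscle myosin, had 20.9, 17.5, 15.3 and 9.28 CPM in controls and 4.58, 3.78, 2.94 and 6.85 CPM with knockdown (log2 change -1.79, SE 0.38, adjusted p = 0.00209). Ppp1r12b, a targeting subunit of myosin phosphatase, had 136, 139, 139 and 130 CPM and 75.7, 77.6, 80 and 64.8 CPM (log2 change -0.87, SE 0.0674, adjusted p = 1.81e-08). Smtnl2, a smoothelin-like protein, fell by 0.96 (adjusted p = 0.00101), and Cnn2, a calponin of non-muscle cells, by 0.59 (adjusted p = 0.011, and 0.0813 to 0.109 without batch P16, P17 or P18). Myh11, the myosin heavy chain of smooth muscle, was at 3 counts or fewer in each control and at 1.35, 0.779, 1.36 and 0.265 CPM with knockdown, at least 6.96-fold higher against the floor (adjusted p = 0.000764). Itga8, an integrin of smooth muscle, was at least 5.68-fold higher (adjusted p = 0.00638), and lost its call in 3 of 12 fits at 0.0516 to 0.129. Smtn, smoothelin, named after its values were seen, rose by 0.60 (adjusted p = 4.86e-05). Tagln, Lmod1, Des and Mylk were not called (log2 fold changes 0.04, 0.46, -1.47 and -1.07, adjusted p = 0.958, 0.446, 0.0756 and 0.211). With the block Des and Mylk were lower (adjusted p = 0.00694 and 0.00132), as they were without batch P19 (0.00202 and 5.39e-05).

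Transcription factors that control smooth muscle genes gave 4 higher and 4 lower of 17 (12.3% and 12.8% of all genes). These factors were 6 higher and 6 lower without batch P19 (18.7% and 21.3% of all genes). The factors gave 2 to 5 and 2 to 6 without 1 library, and 1 to 6 and 2 to 6 without 1 batch. Mef2a, a MADS-box factor, had 270, 252, 247 and 257 CPM in controls and 142, 157, 160 and 140 CPM with knockdown (log2 change -0.77, SE 0.0557, adjusted p = 6.38e-09). Elk1, an SRF partner that competes with myocardin, rose from 16.4 ± 1.11 to 22.7 ± 0.894 CPM (SD over 4 libraries each; log2 change 0.47, SE 0.0752, adjusted p = 9.74e-05). Myocd, myocardin, the coactivator of SRF, had 2.18, 2.76, 1.75 and 3.32 CPM in controls and 1.35, 1.45, 0.435 and 0.743 CPM with knockdown (log2 change -1.32, SE 0.376, adjusted p = 0.0127), and its adjusted p was 0.051 to 0.064 without knockdown P18 or batch P18. Klf4, a repressor of contractile genes, fell by 0.38 (adjusted p = 0.00374, and 0.0561 to 0.0655 without batch P16 or P17). Gata6 rose by 0.55, Prrx1 by 0.40 and Mef2c by 0.36 (adjusted p = 0.00672, 0.0314 and 0.0358), and these calls were lost in 3, 7 and 8 of 12 fits, with adjusted p up to 0.184. Tbx20 fell by 0.49 (adjusted p = 0.0362), a call lost in 9 at 0.0631 to 0.213.

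Calcium handling and potassium channel genes gave 7 higher and 2 lower of 18 (12.3% and 12.8% of all genes), and 9 and 6 with the block (20.0% and 20.6%). Channel and pump counts were 8 higher and 5 lower without batch P19 (18.7% and 21.3% of all genes). Channels and pumps gave 3 to 9 and 2 to 4 without 1 library, and 3 to 8 and 1 to 5 without 1 batch. The lowest count of higher members without 1 library was without knockdown P18. Besides Cacna2d1, the ryanodine receptor Ryr2 rose by 1.95 (adjusted p = 0.0105, a call lost in 4 of 12 fits at 0.0581 to 0.0768). The calcium pumps of the endoplasmic reticulum fell. Atp2a2, SERCA2, had 354, 338, 316 and 326 CPM in controls and 238, 246, 237 and 285 CPM with knockdown (log2 change -0.41, SE 0.0737, adjusted p = 0.000375). Atp2a3, SERCA3, had 5.67, 5.47, 4.39 and 5.38 CPM and 0.467, 0.835, 0.761 and 3.61 CPM (log2 change -1.89, SE 0.423, adjusted p = 0.00277, and 0.066 without batch P17). Neither overlapped, and P19 was the highest knockdown value of each.

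Mitosis genes were lower in P16 to P18 and less so in P19. Without the block 6 of 50 fell and 1 rose (median -1.11), a share of lower genes close to the 12.8% over all genes. With the block 36 fell and 1 rose (20.6% of all genes fell in that fit), and without batch P19 42 fell and 1 rose (21.3% of all genes fell). Leaving out 1 library gave 2 to 40 lower genes. The highest count was without knockdown P19, and the lowest without knockdown P16, P17 or P18 or control P19. Leaving out 1 batch gave 0 to 42, with the lowest count without batch P16 or P18. Of the 50 genes, 42 were lower with knockdown in all 4 batches, where 24.4% of all genes were (and 26.0% were higher in all 4). The median log2 ratio of the list was -1.47, -1.16, -1.40 and -0.60 in P16, P17, P18 and P19. The summed level was 608, 518, 634 and 990 CPM in the controls of P16 to P19 and 347, 345, 372 and 711 CPM with knockdown. Both P19 libraries were the highest of their groups, and knockdown P19 lay above the controls of P16, P17 and P18.

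Single genes show the same layout. Top2a (ENSMUSG00000020914.18), DNA topoisomerase 2 alpha, had 72.9, 59.6, 74.9 and 108 CPM in controls and 19.3, 17.4, 21.1 and 67.7 CPM with knockdown (log2 change -1.33, SE 0.433, adjusted p = 0.0331). Knockdown P19 lay within the control range, the call was lost in 9 of 12 fits (adjusted p = 0.0519 to 0.182), and without batch P19 the adjusted p was 1.42e-09. Mki67, the proliferation marker Ki-67, had 22.3, 14.5, 24.1 and 48.8 CPM and 1.68, 3.56, 3.48 and 31.5 CPM (log2 change -1.46, SE 0.863, adjusted p = 0.234), with an adjusted p of 0.0419 with the block and 7.14e-05 without batch P19. Ccnb1, cyclin B1, had 10.6, 7.91, 11.5 and 21.6 CPM in controls and 1.07, 1.67, 2.45 and 12.7 CPM with knockdown (-1.55, adjusted p = 0.137, and 0.0219 with the block). Plk1 and Bub1b, kinases of mitotic entry and the spindle checkpoint, were not called without the block (log2 fold changes -0.89 and -0.84, adjusted p = 0.106 and 0.187) and were lower with it (adjusted p = 0.0194 and 0.0272). Aurkb, aurora kinase B, was called in neither fit (-1.32, adjusted p = 0.164 and 0.0545). Without batch P19 Ccnb1, Plk1, Bub1b and Aurkb were lower (adjusted p = 3.99e-06, 0.000328, 7.79e-07 and 0.00184). Foxm1, the transcription factor of G2/M genes, had 15, 13.4, 16.3 and 20.7 CPM in controls and 5.79, 4.79, 7.01 and 13 CPM with knockdown (log2 change -1.10, SE 0.262, adjusted p = 0.0048). Its groups did not overlap, although the adjusted p was 0.0645 to 0.0665 without batch P16 or P18. Cdc25c, a phosphatase that activates CDK1, fell by 2.02 (adjusted p = 0.00789, and 0.0647 to 0.08 without batch P16 or P18). Dlgap5, a spindle protein, fell by 1.59 (adjusted p = 0.0352), a call lost in 8 of 12 fits at 0.0639 to 0.218. Smc4, a condensin subunit, was the member that rose (0.32, adjusted p = 0.0069), and it lost its call without batch P16 or P17 at 0.0753 to 0.109.

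Promoters of G2/M genes often carry the letters TTTGAA, the cell cycle genes homology region, and CCAAT boxes. The mitosis list was written by hand and its members were counted whether called or not, so the shares below show nothing about knockdown. Searched on both strands, TTTGAA was found in 28 of 39 promoters of the mitosis list (71.8%) and 11.9% of those of all genes tested, and CCAAT in 27 of 39 (69.2%) and 39.0%. The 250 bases before the start of Ccnb2, cyclin B2 (GRCm38.p6, chr9:70421555-70421804, minus strand), are shown because they hold both. Capitals mark TTTGAA, 167 bases before the start, and 3 CCAAT boxes, at 87, 54 and 21. The bases after this start were not found in a reference transcript of Ccnb2, so these distances rest on the listed start alone.
Ccnb2: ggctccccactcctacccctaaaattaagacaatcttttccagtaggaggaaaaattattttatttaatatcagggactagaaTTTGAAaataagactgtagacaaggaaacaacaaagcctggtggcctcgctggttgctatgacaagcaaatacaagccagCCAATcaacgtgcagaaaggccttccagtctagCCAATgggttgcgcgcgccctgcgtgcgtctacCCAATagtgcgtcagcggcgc
Ccnb2 had 6.93, 3.9, 5.44 and 12.1 CPM in controls and 0.374, 0.723, 1.09 and 5.62 CPM with knockdown (log2 change -1.89, SE 0.71, adjusted p = 0.0612, 0.012 with the block and 1.94e-08 without batch P19).

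Of 36 DNA replication genes, 3 were higher and 1 lower without the block (median -0.05; 12.3% and 12.8% of all genes), and 7 and 8 with it (20.0% and 20.6%). Replication counts were 5 higher and 11 lower without batch P19 (18.7% and 21.3% of all genes). Replication genes gave 2 to 4 and 0 to 4 without 1 library, and 2 to 5 and 0 to 11 without 1 batch. Lig1, DNA ligase 1, rose from 20 ± 1.12 to 29.9 ± 1.75 CPM (SD over 4 libraries each; log2 change 0.58, SE 0.0978, adjusted p = 0.000203), and Pola2, a subunit of DNA polymerase alpha, by 0.38 (adjusted p = 0.00287). Mcm7, a helicase subunit, rose by 0.26 (adjusted p = 0.0101) and Rrm2, a subunit of ribonucleotide reductase, fell by 1.37 (adjusted p = 0.0355). Those calls were lost in 4 and 8 of 12 fits, at 0.062 to 0.164 and 0.0694 to 0.222. Of 28 p53 targets, 6 rose and 2 fell (12.3% and 12.8% of all genes), and 10 and 3 with the block (20.0% and 20.6%). Counts of p53 targets were 9 higher and 5 lower without batch P19 (18.7% and 21.3% of all genes). Targets of p53 gave 5 to 8 and 1 to 2 without 1 library, and 4 to 9 and 0 to 5 without 1 batch. Pidd1, a death-domain protein, had 6.55, 5.68, 7.48 and 5.76 CPM in controls and 13.9, 12.8, 13.4 and 15.1 CPM with knockdown (log2 change 1.12, SE 0.112, adjusted p = 4.28e-07). Sesn1, a stress-induced inhibitor of mTORC1, had 77.7, 76, 82.3 and 86.8 CPM and 120, 127, 126 and 115 CPM (log2 change 0.60, SE 0.0744, adjusted p = 7.10e-06). Both rose without overlap, P19 included. Tigar, a fructose-bisphosphatase, fell by 0.56 (adjusted p = 0.0047, and 0.0535 to 0.0747 without batch P16, P17 or P18).

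Cholesterol and fatty acid synthesis genes had a similar layout to mitosis genes. Most are targets of the SREBP transcription factors. Without the block 7 of 34 fell and none rose (median -0.83), where 12.8% of all genes fell. With the block 31 fell (20.6% of all genes), and without batch P19 30 fell (21.3%). Leaving out 1 library gave 1 to 27 lower genes and leaving out 1 batch 1 to 30. The count was lowest without knockdown P16, P17 or P18, without control P19, and without batch P16, P17 or P18. The median log2 ratio was -1.01, -1.0, -1.12 and -0.63 in P16 to P19, and 31 of 34 genes were lower with knockdown in all 4 batches, where 24.4% of all genes were. The summed level was 5972, 5379, 5655 and 9997 CPM in the controls of P16 to P19 and 3544, 3569, 3402 and 6539 CPM with knockdown. P19 was again the highest of each group, and knockdown P19 exceeded 3 of 4 controls.

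Scd1, a desaturase that makes oleic acid, had 481, 409, 422 and 888 CPM in controls and 182, 188, 182 and 402 CPM with knockdown (log2 change -1.21, SE 0.371, adjusted p = 0.0245). The groups did not overlap, but the call was lost in 7 of 12 fits without the block, at 0.075 to 0.132. Its log2 ratios were -1.4, -1.12, -1.21 and -1.14 in P16 to P19, and its adjusted p was 1.37e-06 with the block. Srebf2, the SREBP of cholesterol genes, fell by 0.80 (adjusted p = 0.0474, and 0.00177 with the block), a call lost in 10 of 12 at 0.0633 to 0.232. Ebp, a sterol isomerase, fell by 0.76 (adjusted p = 0.0168), a call lost in 7 at 0.0564 to 0.142. Srebf1, the SREBP of fatty acid genes, named after its values were seen, had 108, 102, 100 and 106 CPM in controls and 66, 73.1, 63.4 and 79.3 CPM with knockdown (log2 change -0.56, SE 0.0862, adjusted p = 7.08e-05). Fasn, Fads1 and Fads2 of fatty acid synthesis and desaturation were not called (log2 fold changes -0.29, -0.06 and -0.04, adjusted p = 0.201, 0.801 and 0.902). Fasn was lower with the block (adjusted p = 0.0161).

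CCAAT boxes, which NF-Y binds beside SREBP, were present in 19 of 24 matched promoters of this list (79.2%). Of the promoters of all genes tested 39.0% held them. This list too was written by hand and counted whether called or not, so its share shows nothing about knockdown. The 250 bases before the start of Idi1, isopentenyl-diphosphate isomerase (GRCm38.p6, chr13:8885356-8885605, plus strand), hold CCAAT on the opposite strand, marked in capitals 45 and 14 bases before the start.
Idi1: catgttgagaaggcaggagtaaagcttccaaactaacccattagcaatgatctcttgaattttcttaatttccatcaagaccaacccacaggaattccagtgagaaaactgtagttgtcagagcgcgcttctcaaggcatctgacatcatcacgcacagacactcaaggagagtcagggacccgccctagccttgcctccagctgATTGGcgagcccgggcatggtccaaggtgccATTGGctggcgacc
Idi1 had 162, 128, 141 and 411 CPM in controls and 39.7, 35.5, 35 and 232 CPM with knockdown (log2 change -1.30, SE 0.738, adjusted p = 0.216, 0.00044 with the block and 2.06e-11 without batch P19). Knockdown P19 was higher than each control of P16 to P18.

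**Figure D4:**
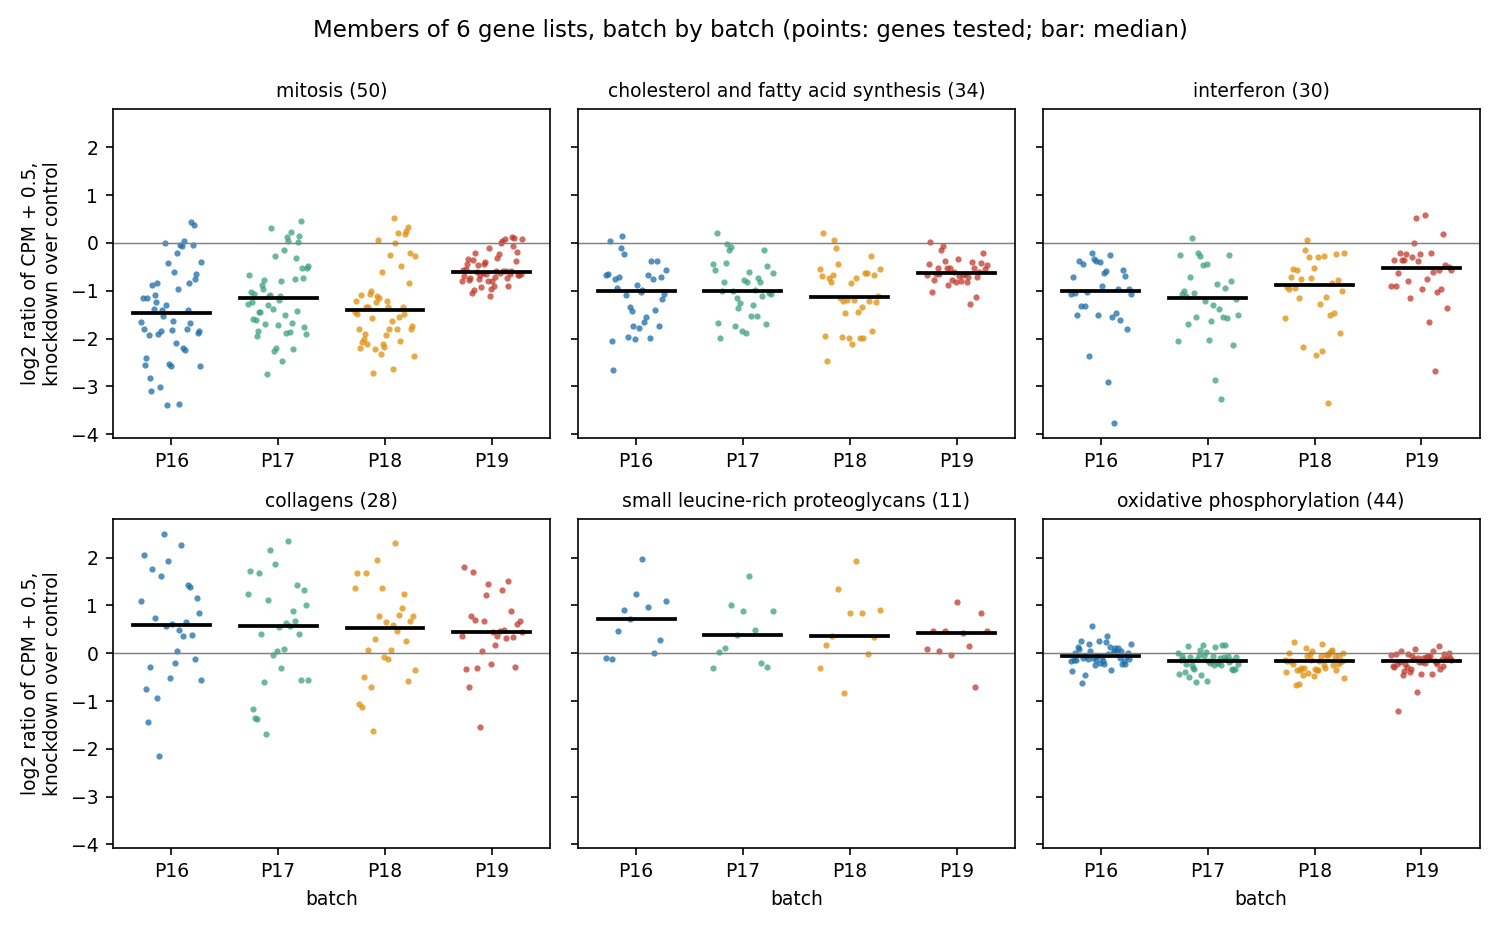
Log2 ratio of knockdown to control CPM (0.5 added to each) of the members of 6 gene lists in batches P16 to P19. Each point is a gene and each bar the median of the list in that batch. The mitosis and cholesterol medians lie near or below -1 in P16 to P18 and near -0.6 in P19.

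In 4 lists of stress and energy genes more members were called lower than higher. For glycolysis and oxidative phosphorylation the share of lower members was near or below that of all genes, and no list was tested. Of 39 genes of the ATF4 pathway and unfolded protein response 13 fell and 3 rose (median -0.18; 12.8% and 12.3% of all genes), and 19 and 7 with the block (20.6% and 20.0%). Stress gene counts were 5 higher and 21 lower without batch P19 (18.7% and 21.3% of all genes). Stress genes gave 2 to 5 and 11 to 19 without 1 library, and 1 to 5 and 8 to 21 without 1 batch. Calr and Canx, the chaperones calreticulin and calnexin of the endoplasmic reticulum, fell. Calr had 501, 500, 542 and 554 CPM in controls and 315, 313, 310 and 464 CPM with knockdown (log2 change -0.58, SE 0.125, adjusted p = 0.00194), and Canx had 817, 775, 786 and 914 CPM and 561, 530, 564 and 664 CPM (log2 change -0.51, SE 0.0902, adjusted p = 0.000325). Slc7a5, a transporter of large amino acids, and Nupr1, a stress-induced nuclear protein, fell by 0.69 and 0.61 (adjusted p = 0.00167 and 0.000471). All 4 fell without overlap. Ern1, the stress sensor IRE1, rose by 0.55, Ddit3, the transcription factor CHOP, by 0.46 and Dnajb9, a co-chaperone, by 0.36 (adjusted p = 0.00672, 0.0106 and 0.012). Their calls were lost in 2, 1 and 5 of 12 fits, with adjusted p up to 0.0931.

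Of 31 glycolysis and hypoxia genes, 5 fell and 2 rose (12.8% and 12.3% of all genes), and 10 and 7 with the block (20.6% and 20.0%). Glycolysis counts were 4 higher and 11 lower without batch P19 (18.7% and 21.3% of all genes). Glycolysis and hypoxia genes gave 2 to 4 and 4 to 7 without 1 library, and 0 to 4 and 3 to 11 without 1 batch. Slc2a1, the glucose transporter GLUT1, had 40, 40.2, 38.6 and 41 CPM in controls and 30, 33.2, 26.8 and 25.6 CPM with knockdown (log2 change -0.47, SE 0.0957, adjusted p = 0.00115). Pfkfb3, which makes an activator of glycolysis, fell by 0.64 (adjusted p = 0.00372). Ankrd37, a hypoxia-inducible gene, rose by 1.29 (adjusted p = 0.00347, and 0.0596 to 0.0705 without batch P17 or P18). Of 44 nuclear genes of oxidative phosphorylation, 4 fell, a smaller share than the 12.8% of all genes, and none rose. With the block 18 fell and 2 rose (20.6% and 20.0% of all genes). Respiratory chain counts were 1 higher and 16 lower without batch P19 (18.7% and 21.3% of all genes). Respiratory genes gave 0 to 1 and 3 to 11 without 1 library, and 0 to 1 and 1 to 16 without 1 batch. Ndufs1, a subunit of complex I, went from 81.2 ± 4.86 to 64.6 ± 1.74 CPM (SD over 4 libraries each; log2 change -0.33, SE 0.0757, adjusted p = 0.00296) without overlap, the only one of the 4 whose call held in each fit that left out a library or batch. Of 42 lysosome and autophagy genes, 9 fell and 2 rose (12.8% and 12.3% of all genes), and 16 and 7 with the block (20.6% and 20.0%). Lysosome counts were 6 higher and 17 lower without batch P19 (18.7% and 21.3% of all genes). Lysosome and autophagy genes gave 1 to 2 and 7 to 13 without 1 library, and 1 to 6 and 5 to 17 without 1 batch. Asah1, acid ceramidase, had 346, 303, 318 and 396 CPM in controls and 188, 201, 210 and 253 CPM with knockdown (log2 change -0.68, SE 0.128, adjusted p = 0.000617). Neu1, a lysosomal sialidase, and Ctsh, cathepsin H, fell by 0.47 and 0.36 (adjusted p = 0.00141 and 0.0025). Gabarapl1, an autophagosome protein, rose by 0.50 (adjusted p = 6.55e-05).

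Imprinted genes, which are expressed from 1 parental allele, were listed with Zfp57. Of 23 tested, 8 rose and 3 fell (12.3% and 12.8% of all genes), one of which was Zfp57 itself. Imprinted gene counts were 12 higher and 4 lower without batch P19 (18.7% and 21.3% of all genes). The imprinted list gave 6 to 10 and 2 to 3 without 1 library, and 5 to 12 and 1 to 4 without 1 batch. Peg10, a retrotransposon-derived gene of the paternal allele, had 4.7, 5.47, 6.08 and 6.37 CPM in controls and 12, 11, 14 and 10.8 CPM with knockdown (log2 change 1.07, SE 0.155, adjusted p = 3.68e-05). Blcap had 21.2, 16.7, 20.9 and 16.8 CPM and 30.2, 33.3, 31 and 30.1 CPM (log2 change 0.72, SE 0.0916, adjusted p = 8.71e-06). Meg3 and Rian, noncoding RNAs of the maternal allele of the Dlk1-Dio3 region, were low and rose. Meg3 had 0.588, 0.541, 0.299 and 0.305 CPM in controls and 2.15, 2.89, 3.15 and 0.796 CPM with knockdown (log2 change 2.37, SE 0.511, adjusted p = 0.00174), and Rian had 0.966, 0.325, 0.598 and 0.542 CPM and 2.01, 1.95, 1.41 and 1.54 CPM (log2 change 1.49, SE 0.314, adjusted p = 0.00148). None of the 4 overlapped between groups. Gene counts do not separate alleles. Gnas and Cdkn1c fell by 0.32 and 0.86 (adjusted p = 0.00369 and 0.0269), and lost their calls in 2 and 5 of 12 fits at 0.055 to 0.0612 and 0.0507 to 0.183. Of 18 HOX genes 2 rose and 1 fell, no larger shares than the 12.3% and 12.8% of all genes, and 6 and 2 with the block (20.0% and 20.6%). HOX counts were 8 higher and 2 lower without batch P19 (18.7% and 21.3% of all genes). HOX genes gave 1 to 4 and 1 to 2 without 1 library, and 0 to 8 and 1 to 2 without 1 batch.

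Markers of other cell types moved in both directions. Pi16, a marker of adventitial fibroblasts, had 47.8, 53.1, 47.9 and 30.3 CPM in controls and 13.9, 9.4, 10 and 17 CPM with knockdown (log2 change -1.83, SE 0.238, adjusted p = 2.23e-05). Of 7 tested fibroblast markers, Pi16 and Ly6a fell and Pdgfra and Lum rose, where 12.8% of all genes fell and 12.3% rose. Without batch P19 2 rose and 3 fell, where 18.7% of all genes rose and 21.3% fell. The summed level of the 10 was 231, 207, 194 and 230 CPM in controls and 117, 105, 100 and 135 CPM with knockdown. Egfl7, an endothelial secreted protein, fell by 1.91 (adjusted p = 0.000291), while Vwf rose by 2.10 (adjusted p = 0.0165, lost in 5 of 12 fits at 0.0532 to 0.12), and Cdh5, Tie1 and Erg stayed at 0. None of the 2 tested leukocyte and 2 tested skeletal and cardiac markers was called, 1 of 2 adipocyte markers rose (both with the block and both without batch P19), and 2 of 6 neural markers rose and 1 fell. Without batch P19 3 neural markers rose and 2 fell, and 1 skeletal and cardiac marker fell. The summed level of adipocyte markers was 53.1, 54.2, 45.8 and 44 CPM in controls and 67.5, 67.8, 71.5 and 67.2 CPM with knockdown, higher without overlap. That of skeletal and cardiac muscle markers was 18.1, 19.3, 16.7 and 23.8 CPM in controls and 12.1, 10.1, 6.58 and 21.9 CPM with knockdown, and knockdown P19 lay within the control range. The summed level ranged over 10.7 to 14.8 CPM in controls and 12.1 to 14.9 CPM with knockdown for leukocyte markers, 3.07 to 5.14 CPM in controls and 2.71 to 4.53 CPM with knockdown for endothelial markers and 100 to 121 CPM in controls and 120 to 121 CPM with knockdown for neural markers. Ncam1, an adhesion molecule of neural cells, had 9.45, 10.1, 13 and 12.9 CPM in controls and 29.9, 39.5, 41.3 and 14.2 CPM with knockdown (log2 change 1.45, SE 0.291, adjusted p = 0.0013). The part of other cell types in the gene list results was not tested.

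Batch P19 differed from the others in size more than in direction. The median log2 ratio of the 3783 called genes, signed by the direction of the call, was 0.53, 0.50, 0.50 and 0.37 in P16 to P19. A check that did not use P19 took the 1167 genes called without that batch with a change of 1 log2 unit or more. Of these, 1053 (90.2%) had the same direction in P19. Their median signed log2 ratio was 1.24, 1.14 and 1.16 in P16 to P18 and 0.62 in P19. The first 3 batches chose these genes, so only the P19 value is independent of the choice. For the target, the log2 ratios were -1.30, -0.80, -0.45 and -0.84 in P16 to P19, and P19 was not the smallest. The other gene changes in P19 were not related to the target level by any test.

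The same knockdown was sequenced in cells given angiotensin II at 10 ng/ml for 24 h, with 8 further libraries and no library in common. There 4033 genes were called (26.7%), of which 3029 were also called in untreated cells. These are 80.1% of the untreated and 75.1% of the angiotensin II calls, and 3028 had the same direction. Batches P16 to P19 are shared by both comparisons. Igf1r changed by 2.75, Cast by 1.88, Col6a1 by 1.27, Notch2 by 1.21, Col1a2 by -1.63, Pdgfb by -2.0 and Oas1a by -3.32 on the log2 scale under angiotensin II (adjusted p = 5.12e-12, 1.27e-09, 4.50e-07, 1.32e-06, 6.03e-09, 4.97e-07 and 1.57e-06). In the interferon list 20 of 30 fell, and in the mitosis list 13 of 50, where 13.3% of all genes fell. With the block 41 mitosis genes fell, where 20.9% of all genes did. Of the 3783 genes called in untreated cells, 16 had the opposite sign. The interaction test, which compares the effect of knockdown between both conditions, called 0 genes with edgeR, with a smallest adjusted p of 0.201 and 166 genes at an unadjusted p under 0.05. DESeq2 called 1, the predicted gene Gm4724 (adjusted p = 8.73e-06). Adamts12, Adamts7 and Lum were called in untreated cells and not under angiotensin II (adjusted p = 0.0519, 0.15 and 0.0754), a contrast that the interaction test did not call. With the block all 3 were called under angiotensin II too (adjusted p = 0.0399, 0.00529 and 0.0101).

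**Figure D5:**
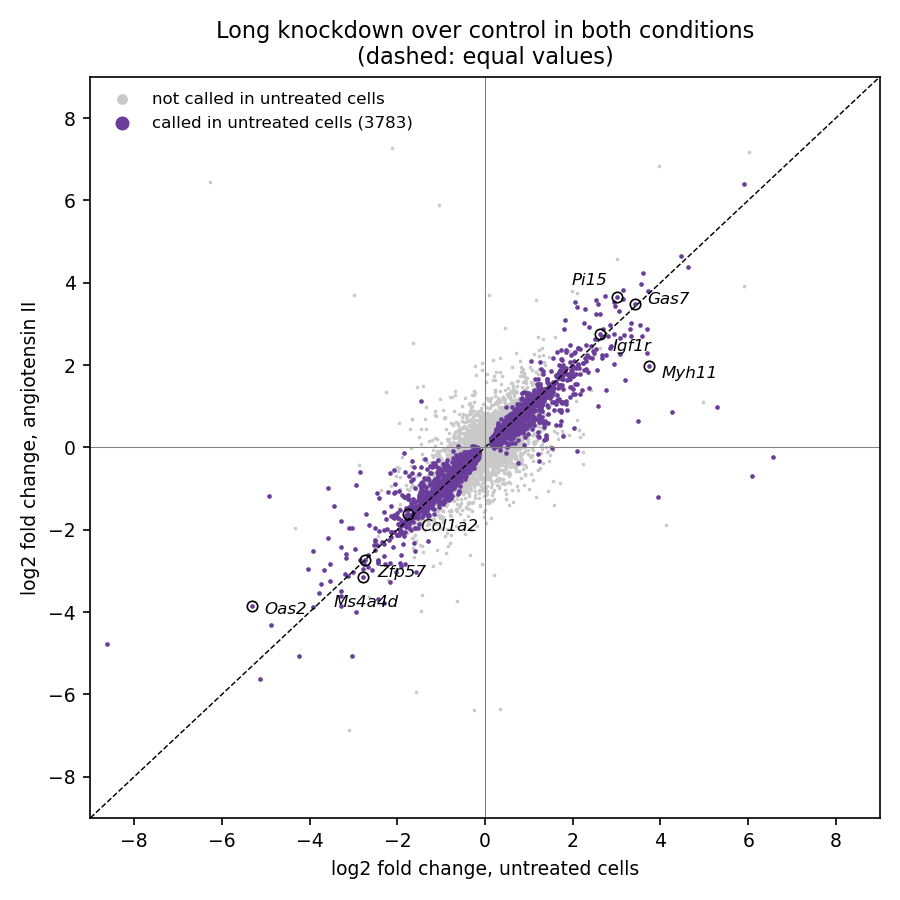
Log2 fold change of long CASC15 knockdown over control in untreated cells (x axis) and under angiotensin II (y axis) for all genes tested. Genes called in untreated cells are coloured, and the others are grey. The dashed line marks equal change, and most coloured points lie along it.

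Run 2 of the series holds 2 libraries labelled total CASC15 knockdown and 2 controls. There 317 of 15350 genes were called (2.07%). Of the 3783 genes called here, 3706 were tested in run 2, 70 were also called there, and 25 of those 70 had the same direction. Igf1r had a log2 fold change of -0.51 in run 2 (adjusted p = 0.447), Cast of 0.07 (adjusted p = 0.918) and Zfp57 of -0.42 (adjusted p = 0.687). Cacna2d1, which rose here, was lower there (-1.25, adjusted p = 0.0199). The target was not lower in the libraries labelled total knockdown (0.36, adjusted p = 0.739). The comparisons differ in the labelled target, the run and the number of libraries, and these cannot be told apart.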

How the data were processed

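RNA-seq expected counts per gene were used for 20 libraries of run 3, 8 of which form the comparison described, and for 4 libraries of run 2. The deposited expected counts were made by the authors, whose submitters' processing notes name STAR 2.7.11b, RSEM 1.3.1 and the builds GRCm39 and mm10. Per the labels, batches P16 to P19 correspond to replicates 1 to 4 in run 3. The strand setting and the role of each build were not given in the sources used here. Gene symbols came from the annotation table used here, and IDs with a symbol held 98.7% of counts.

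Counts were rounded to whole numbers and fitted in R 4.3.3 with edgeR 4.0.16 (limma 3.58.1). Genes were kept by filterByExpr (minimum count 10, minimum total 15), scaled by TMM and fitted with the robust quasi-likelihood model over all 5 run 3 groups, without a block. Called genes have a Benjamini-Hochberg adjusted p under 0.05. Libraries held 17259049 to 30336220 counts, and the common biological coefficient of variation was 0.148. Intervals and floors cover counting error only. A floor is 3 counts per library.

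The members and gene lists were chosen with earlier results of these data known. The named genes are the target gene and Sox4, the 12 largest increases and 12 largest decreases among called genes that had a mean of at least 5 CPM, a symbol other than a Gm number or Rik name and no overlap between groups, the 8 called genes of highest CPM that changed by 1 log2 unit or more, up to 4 called members per list and direction, and 10 genes fixed by name. Other genes are said to be named after their values were seen. The alternatives were DESeq2 1.42.0, RLE scaling, no filter or a filter at a mean of 1 CPM, a fit of the compared groups only, the batch block, leaving out each library or batch, and a minimum fold.

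Pairing was checked on deviations from group means. Control and knockdown libraries of the same batch correlated at 0.062 to 0.467 (mean 0.195) and those of different batches at a mean of -0.0603. The labels tie each number to a batch. The test was run on simulated counts for the untreated comparison (14799 genes). It called 51.5% of 97 genes changed by 1.5-fold, 68.4% of 95 changed by 2-fold and 4 unchanged genes. Only 100 genes were changed at each fold and no batch difference was simulated, so these shares need not hold in the data. Promoter sequences came from RefSeq.

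Some genes of the lists are not reported here.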

Additional observations from a re-analysis of the deposited data

Results flagged for a closer look

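Control and knockdown levels of 43 named genes were screened for a library far from the other 3 of its group (Dixon's test at 95%), and 15 of 86 groups met it, where chance gives about 1 in 20. Of these, 10 were in knockdown P19 and 2 in control P19. Genes measured in the same library are not independent.

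In knockdown P19, genes of cell division lay above the other knockdown libraries. Mki67 was at 31.5 CPM against 1.68 to 3.56, Ccnb1 at 12.7 CPM against 1.07 to 2.45, and Bub1b at 9.87 CPM against 2.19 to 3.21. Genes that knockdown lowered were also higher there. Slc12a8 was at 4.56 CPM against 1.85 to 2.28, Fanca at 5.36 CPM against 1.52 to 1.87, Ly6a at 83.8 CPM against 16.4 to 19.5, Akap12 at 858 CPM against 372 to 410, and Scd1 at 402 CPM against 182 to 188. Wnt5b, which knockdown raised, was lower in P19, at 8.54 CPM against 38.6 to 44.3, while Cast, also raised, was higher, at 507 CPM against 397 to 415.

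Among controls, Scd1 was at 888 CPM in P19 against 409 to 481, and Zfp57 at 107 CPM in P19 against 174 to 185. Control P16 was high for Ms4a4d, at 19.6 CPM against 15.9 to 16.1, and for Muc5b, at 32.5 CPM against 16.96 to 19.33. Cnn1 was at 0.0997 CPM in control P18 and had no count in the other controls.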

How the results depend on the processing

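In untreated cells 3783 genes were called. With the replicate block, which pairs libraries by batch, the number was 6126. It was 773 for called genes that changed by 1 log2 unit or more, and 1499 in a test against a fold of 1.2. Leaving out 1 library gave 2889 to 4882 and leaving out 1 batch 1837 to 6062. DESeq2, RLE scaling, both other filters and the fit of the compared groups only gave 3051 to 4093. Under angiotensin II 4033 genes were called, 6238 with the block, 3042 to 4880 without 1 library and 1842 to 6049 without 1 batch. Among the fits that left out a batch, the lowest value was without batch P17 and the highest without batch P19 for both conditions. The interaction called 0 genes, except 1 with DESeq2 and 1 in the fit of the compared groups only, the same gene in both. The target's log2 fold change was -1.06 to -0.83 without 1 library (adjusted p from 0.000936 to 0.00476) and -1.11 to -0.79 without 1 batch (adjusted p from 0.000585 to 0.0189). It was called under each alternative except the minimum folds, which were not read for single genes, and its change in the fit reported is under 1 log2 unit. Of 179 named genes called, 98 kept their call under every alternative in which they were tested, the minimum folds aside, 81 lost it under at least 1, and none reversed. Of genes named by rule, the block changed 4 calls, which became called. It also called Ccnb2, Idi1, Des, Mylk, Ifit2, Fasn and Aldh5a1. The causes of these differences were not tested. A bound in place of a fold is given only where all libraries of a group held 3 counts or fewer. Oas2, Prl and Lcn2, with 1 to 8 counts per knockdown library, rest on few counts.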
